A study of Saccharomyces cerevisiae with 66 samples.

Results

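POP2 is the catalytic subunit of the yeast CCR4-NOT complex that is also known as CAF1, and its depletion was described here from 6 of the 66 libraries of the series. The members were chosen by their sample titles: 3 libraries of the POP2 degron strain with the auxin indole-3-acetic acid (IAA) and 3 with its solvent DMSO, both taken at 4 h in sporulation medium. The series holds 11 strains with 3 IAA and 3 DMSO libraries each, and a strain without a tagged gene, WT in the titles, served as the reference for the additions themselves. The titles of 9 further strains name another RNA factor each, of which NOT5 and CAF40 are subunits of the same complex.

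All groups were diploid Saccharomyces cerevisiae cells labelled MATa/alpha with the alleles leu2::hisG, trp1::hisG, his3:p550, ura3, and lys2 with ho::LYS2. The POP2 strain also carried POP2-3V5-IAA7:KanMX6, and its title calls the IAA libraries degron. The WT genotype names no tagged gene, and its title names the TIR ligase. The number that ends the label (after p in WT and after KanMX in POP2) climbs by 1 from library to library, and it was not read as a difference in genotype. Cells had grown in glucose medium and then in acetate medium before they were moved to acetate sporulation medium, and the growth protocol says that they were held early in meiosis. Per the protocol, the additions came 3 h after the transfer and were 50 µM copper sulphate with 500 µM IAA. IAA and DMSO samples carry an identical protocol, which leaves unsaid whether copper also went into the DMSO cultures. The labels do not say whether the 3 replicates of a group were separate cultures or clones, so that p-values measure only the spread between these libraries.

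Messenger RNAs end in a poly(A) tail, and its shortening is usually the first step of their decay. CCR4-NOT carries a pair of nucleases that shorten tails, Ccr4 and Pop2, on the scaffold Not1 (CDC39 in yeast), and adaptor proteins such as the PUF family bring it to chosen messengers. Short tails are followed by removal of the cap through Dcp2 with the Lsm1 and Pat1 activators and by degradation from the 5' end through Xrn1. Puf3, one such adaptor, is known in yeast for binding messengers of nuclear genes for mitochondrial proteins, among them those of the mitochondrial ribosome and of the copper chaperone Cox17.

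The 12 POP2 and WT libraries held 17.0 to 23.7 M counts, so that 3 counts equalled 0.126 to 0.177 CPM (counts scaled so that a library sums to 1 M). Such floors cover counting error only. CPM are relative: the total messenger content of a cell and the length of poly(A) tails were not measured, nor was the Pop2 protein. The libraries were poly(A)-selected, and whether selection recovered short tails less well was not measured. Meiotic entry markers (IME1, IME2, SPO11, REC8, HOP1, ZIP1, DMC1) were present in all groups, while haploid mating-type genes (12 of 13 listed had a line) summed to 79.5 to 132 CPM. Replicate pairs were not copies of each other: the chi-square of their counts, divided by its degrees of freedom, was 24.1 to 211.

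The POP2 transcript itself was examined first. It stood at 95.9, 98.6 and 88.6 CPM in the 3 DMSO libraries and at 54.7, 71.0 and 54.8 CPM in the 3 IAA libraries of its strain. All IAA libraries lay below all DMSO libraries. The log2 change was -0.66 (SE 0.14, adjusted p 2.54e-04), where the p-value comes from limma with Benjamini-Hochberg adjustment over 5828 genes, and 0.05 is the threshold below which a gene is called. The fall differed from the change in WT by -0.48 (adjusted p 0.131 by limma), which did not pass. A degron acts on protein, so this transcript says nothing of how much Pop2 was lost.

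Among the other subunits of the complex, CAF40 was the one called. It stood at 91.7, 80.0 and 88.1 CPM with DMSO and at 171, 213 and 218 CPM with IAA in the POP2 strain, and in WT at 75.0, 73.4 and 73.5 CPM with DMSO and 82.6, 86.3 and 91.9 CPM with IAA. The 3 POP2 IAA libraries lay above the other 9. The log2 change was 1.21 (SE 0.13, adjusted p 1.49e-09), and it exceeded the change in WT by 0.98 (SE 0.19, adjusted p 4.46e-04). CCR4, the other nuclease, changed by -0.09 (adjusted p 0.584), and the scaffold gene CDC39 by 0.12 (adjusted p 0.717). The subunits CDC36, NOT3, MOT2, NOT5 and CAF130 also missed the threshold, with changes between -0.23 in CDC36 and 0.27 in NOT3. CDC39 was already lower in POP2 DMSO than in WT DMSO libraries, with a log2 difference of -0.89 (SE 0.22, adjusted p 0.00193).

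Across all genes, 2111 of 5828 (36.2%) were called in POP2 between IAA and DMSO, 974 higher (16.7%) and 1137 lower (19.5%). In WT the same additions gave 199 calls (3.41%), 98 higher and 101 lower, and 145 of these were called with the same sign in POP2 (72.9% of the WT calls and 6.87% of the POP2 calls). The difference between the POP2 and the WT change, called the change beyond WT below, was tested as an interaction term. It passed for 565 genes (9.69%), of which 361 were higher (6.19%) and 204 lower (3.5%). Genes that passed both tests (IAA against DMSO, and beyond WT) in the same direction numbered 343 higher (5.89%) and 193 lower (3.31%). The IAA libraries lay wholly above the DMSO libraries for 340 of the 343, and wholly below for 189 of the 193. As these genes were picked by their call between IAA and DMSO, that separation is no further result about them. Of these genes, 110 were higher and 28 lower by at least 2-fold beyond WT. The median change beyond WT was 0.85 among the 343 and -0.68 among the 193 on the log2 scale, and it was -0.05 over all genes tested. Without WT IAA replicate 3 the number called in both fell from 536 to 355 (253 higher and 102 lower), and that beyond WT from 565 to 369. The WT calls depended most on single libraries: they fell to 116, 85, 114, 107 and 119 without WT IAA replicate 1 or 2 or WT DMSO replicate 1, 2 or 3. With median-of-ratios scaling the WT calls were 109 higher and 74 lower.

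**Figure D1:**
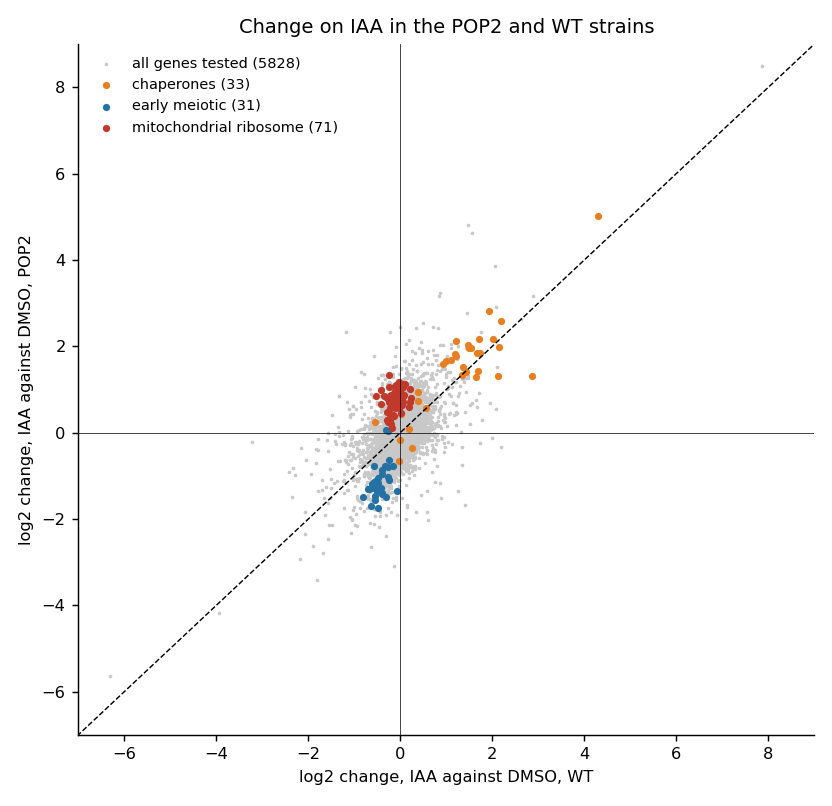
Each point is a gene, with its log2 change between IAA and DMSO in WT on the horizontal axis and in POP2 on the vertical axis; the dashed line marks equal change. The 71 mitochondrial ribosomal protein genes (red) lie above 0 in POP2, with a median of 0.76, while their median in WT is -0.08; the 33 chaperone genes (orange) rise in both strains.

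The gene group that stood out in number was that of the mitochondrial ribosomal proteins, the nuclear-encoded proteins of the ribosome that translates the few messengers made inside mitochondria. All 71 had positive changes in POP2 and positive changes beyond WT. Of the 71, 67 were called higher in POP2 (where 16.7% of all genes were), 62 were called higher beyond WT (6.19% of all genes) and 60 in both (5.89%). No member was called lower, and none was called in WT in either direction by limma; at an unadjusted p below 0.05, 0 were lower in POP2 or beyond WT, and 7 were lower and 0 higher in WT. The median change was 0.76 on the log2 scale in POP2, against -0.06 for all genes, and 0.80 beyond WT, against -0.05. Leaving out 1 library at a time, 51 to 64 members were called in both comparisons.

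MRPL32, a protein of the large mitochondrial subunit, had the largest change of the group. It stood at 15.6, 18.1 and 17.5 CPM with DMSO and 42.2, 48.3 and 38.7 CPM with IAA in POP2, and in WT at 14.4, 16.9 and 17.3 CPM with DMSO and 14.2, 15.7 and 11.5 CPM with IAA. Every POP2 IAA library exceeded every other library of both strains by more than 2-fold. The log2 change was 1.34 (SE 0.17, adjusted p 1.64e-08) in POP2 and 1.58 (SE 0.26, adjusted p 5.24e-05) beyond WT. MRPL35, also of the large subunit, had 52.3, 53.9 and 53.5 CPM with DMSO and 109, 114 and 109.8 CPM with IAA. Its groups did not overlap and each spread over a few CPM. The log2 change beyond WT was 1.30 (SE 0.18, adjusted p 6.05e-06).

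MRPS8, of the small subunit, rose by 0.99 (SE 0.18, adjusted p 2.64e-05), from 9.38, 9.58 and 9.56 CPM to 17.5, 21.1 and 18.4 CPM. MRPL27 of the large subunit stood at 35.8, 29.9 and 35.8 CPM with DMSO and 59.5, 61.0 and 60.7 CPM with IAA. Both groups of 3 were again apart, and the changes beyond WT were 1.42 (SE 0.30, adjusted p 0.00113) for MRPS8 and 1.37 (SE 0.28, adjusted p 0.00109) for MRPL27. Part of each value comes from WT, where the changes were -0.43 for MRPS8 and -0.53 for MRPL27, neither of them called. The values beyond WT therefore exceed the rises in POP2. These 4 genes kept their call beyond WT under all 20 alternatives tried (other scalings, filters and weights, fewer libraries).

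The rise was spread over both subunits. Of 40 proteins of the large subunit, 34 were called in both comparisons, with a median change beyond WT of 0.87, and of 31 of the small subunit 26 were, with a median of 0.76. Changes in POP2 ran from 0.11 for MRPS16 to 1.34 for MRPL32. In 70 of the 71 genes all 3 IAA libraries exceeded all 3 DMSO libraries. The share of all genes separated in this way was not counted. The 11 members not called in both were MRP4, MRP17, MRP20, MRP51, MRPL6, MRPL19, MRPL23, MRPL37, MRPL50, MRPS16 and RSM22. Their changes beyond WT lay between 0.29 (MRPS16) and 0.90 (MRPL19), and RSM22 and MRPL19 missed the threshold beyond WT with adjusted p of 0.0972 and 0.0573.

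The members differed widely in level, and the change was seen from the lowest to the highest. Mean CPM with DMSO ran from 5.21 (MRPL39) to 133 (MRP7) with a median of 40.5, and with IAA from 9.52 (MRPL39) to 206 (MRP7) with a median of 69.9. These CPM are not divided by length. Relative to the WT DMSO mean, the median of the group was 0.21, 0.19 and 0.19 on the log2 scale in the 3 POP2 DMSO libraries and 0.99, 1.00 and 1.00 in the 3 IAA libraries. The libraries of a group were closer to each other than the groups were. In WT with IAA the medians were 0.01, -0.01 and -0.26. A smaller difference was already present with DMSO: 13 members were called higher in POP2 DMSO than in WT DMSO, and none lower, with a median of 0.18. Of all 5828 genes tested, 692 were called higher and 754 lower in that comparison, with a median of -0.03.

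**Figure D2:**
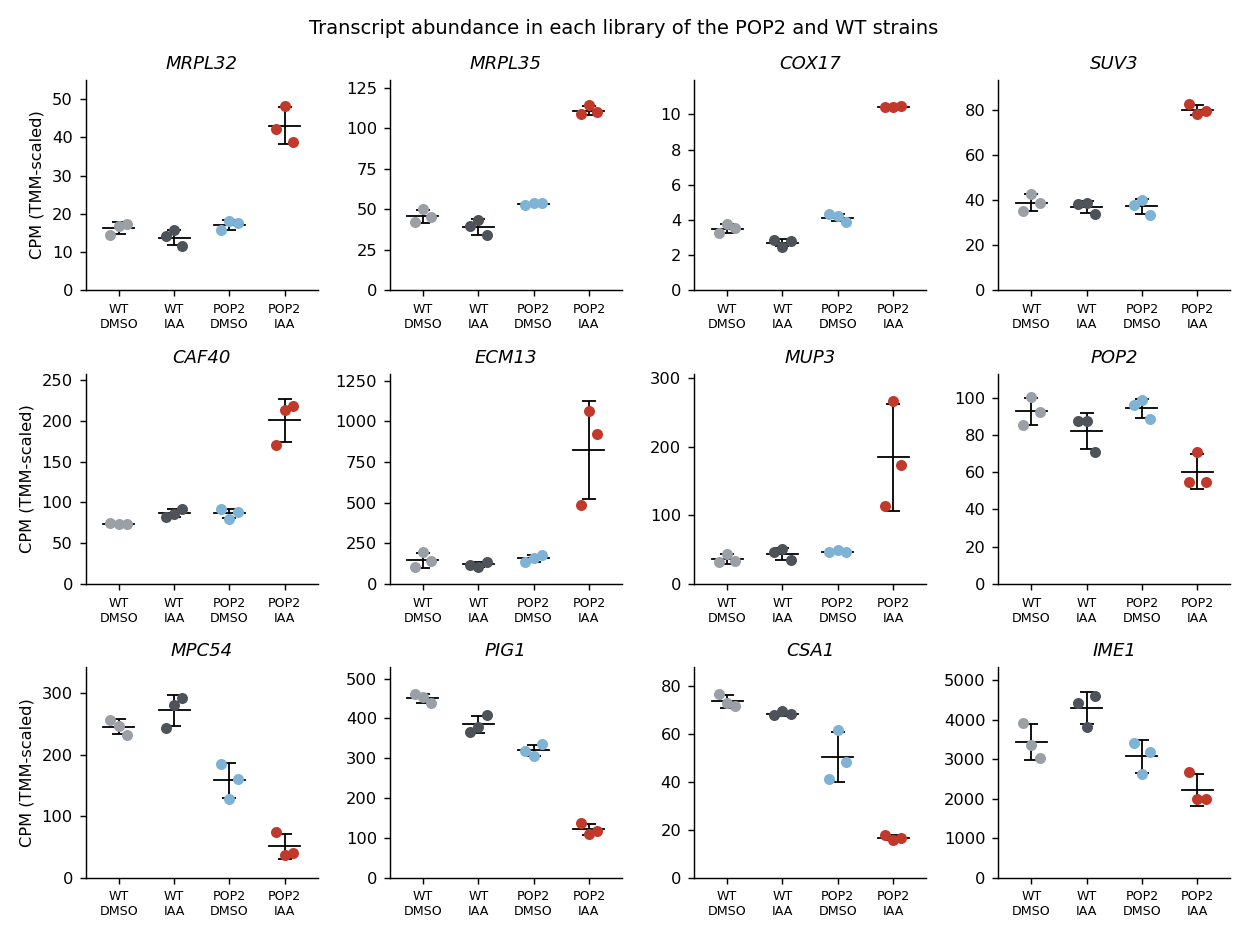
Each panel shows 1 gene, with TMM-scaled CPM on the vertical axis from 0; points are single libraries, the bar is the mean and the whisker 1 SD (n = 3). MRPL32, MRPL35, COX17, SUV3, CAF40, ECM13 and MUP3 are higher in the POP2 IAA libraries than in the other 9, and MPC54, PIG1 and CSA1 are lower.

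Other nuclear genes for mitochondrial functions were read from 6 lists that were drawn up after values had been seen, so that their counts are descriptions. Of 32 genes for mitochondrial tRNA synthetases, translation factors and activators, 15 were called higher in both comparisons and none lower (5.89% and 3.31% of all genes were). Of 39 assembly factors of the respiratory complexes, 20 were, of 35 genes for protein import 10 were, and of 15 genes for iron-sulfur cluster assembly 7 were, with none lower in these lists. Of 24 genes that keep, transcribe or process the mitochondrial genome and its RNA, 8 were called higher in both and 1, the helicase gene PIF1, lower. Of 16 genes of the TCA cycle, 2 were called higher and 2 lower. Joined with the ribosomal proteins, the respiratory chain and the carriers, the 9 mitochondrial lists held 282 genes, or 4.84% of all genes tested. They accounted for 121 of the 343 genes called higher in both (35.3%) and for 5 of the 193 called lower (2.59%). For the import list the count of 10 fell to 6 without POP2 DMSO replicate 2 or WT IAA replicate 1, and for the iron-sulfur list the count of 7 fell to 4 without POP2 IAA replicate 2.

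COX17, which encodes the copper chaperone of cytochrome c oxidase and is a known Puf3 target in yeast, was a low transcript that rose by more than 2-fold. It stood at 4.30, 4.20 and 3.90 CPM with DMSO and 10.4, 10.4 and 10.5 CPM with IAA in POP2, and in WT at 3.23, 3.76 and 3.53 CPM with DMSO and 2.84, 2.48 and 2.80 CPM with IAA. The IAA libraries of POP2 were nearly identical to each other and lay above all the rest. The log2 change was 1.34 (SE 0.21, adjusted p 2.52e-06) in POP2 and 1.71 (SE 0.36, adjusted p 0.00109) beyond WT. PET117, another assembly factor of cytochrome c oxidase, went from 6.89, 8.76 and 7.59 to 13.9, 17.0 and 15.8 CPM, with a change beyond WT of 1.66 (SE 0.29, adjusted p 1.09e-04). The latter is the POP2 change less the WT change, and it exceeds the rise in POP2 that these CPM show. SDH7, an assembly factor of succinate dehydrogenase, went from 22.1, 21.4 and 26.9 to 47.0, 48.7 and 50.7 CPM, and COX10, which makes a heme A precursor, from 27.7, 33.4 and 24.4 to 52.8, 67.4 and 58.3 CPM. In SDH7 and COX10 the IAA libraries lay above the DMSO libraries, and their changes beyond WT were 1.28 (SE 0.19, adjusted p 7.25e-06) and 1.22 (SE 0.30, adjusted p 0.00494).

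Of the genes for translation inside mitochondria, 20 of 32 were called higher in POP2 and 1 lower (16.7% and 19.5% of all genes were). Of those for the mitochondrial genome and its RNA 12 of 24 were called higher and 6 lower. The genes named here are among those called higher in both comparisons. SUV3, the RNA helicase of the mitochondrial degradosome, stood at 38.0, 40.2 and 33.4 CPM with DMSO and 82.5, 78.4 and 79.4 CPM with IAA. The 2 groups were far apart relative to their spread, and the change beyond WT was 1.19 (SE 0.15, adjusted p 3.26e-06). MSY1, a mitochondrial tRNA synthetase, rose from 27.5, 32.3 and 26.7 to 70.2, 87.4 and 83.3 CPM. GUF1, a mitochondrial elongation factor, rose from 27.3, 30.7 and 25.2 to 60.6, 66.0 and 59.4 CPM. The changes beyond WT were 1.47 (SE 0.24, adjusted p 5.00e-05) for MSY1 and 1.25 (SE 0.21, adjusted p 7.67e-05) for GUF1, with no overlap between DMSO and IAA libraries. IFM1, the initiation factor, and MSK1, another tRNA synthetase, exceeded WT by 1.15 (adjusted p 0.00434) and 1.12 (adjusted p 0.00113). MTF1, which guides the mitochondrial RNA polymerase, MSS116, a helicase for splicing, and MHR1, which acts in recombination of mitochondrial DNA, exceeded WT by 1.07, 1.17 and 0.99 (adjusted p 7.22e-04, 0.00624 and 5.34e-05 by limma).

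In the import list, TOM7 of the outer-membrane translocase stood at 5.98, 5.29 and 4.07 CPM with DMSO and 10.0, 11.0 and 11.2 CPM with IAA. MGE1, the exchange factor of the matrix chaperone, stood at 36.8, 37.6 and 32.8 and 61.4, 65.6 and 66.9 CPM. The groups were separate in both, and the changes beyond WT were 1.04 (SE 0.27, adjusted p 0.00820) and 0.82 (SE 0.17, adjusted p 0.00117). MIA40, the import receptor of the intermembrane space, exceeded WT by 0.81 (SE 0.22, adjusted p 0.0134). TIM12 exceeded WT by 0.93 (adjusted p 0.0150), and this call was lost without any 1 of the libraries POP2 IAA replicate 1 and POP2 DMSO replicate 2 (0.72 to 0.80 on the log2 scale, adjusted p 0.0515 to 0.0752), and also with only the POP2 and WT libraries in the fit (adjusted p 0.0571). Of the iron-sulfur genes, ISA1 rose from 159, 137 and 168 to 221, 639 and 400.5 CPM and ISA2 from 38.8, 29.6 and 34.1 to 60.6, 69.8 and 67.7 CPM, with changes beyond WT of 1.76 (SE 0.38, adjusted p 0.00186) and 1.00 (SE 0.17, adjusted p 7.67e-05). The scaffold gene ISU1 exceeded WT by 0.84, and this call was lost without any 1 of the libraries POP2 IAA replicates 2 and 3, POP2 DMSO replicate 2 and WT IAA replicate 2 (0.76 to 0.81 on the log2 scale, adjusted p 0.0527 to 0.0646). The ferredoxin gene YAH1 exceeded WT by 0.90, and this call was lost without any 1 of the 12 POP2 and WT libraries other than POP2 IAA replicate 1, POP2 DMSO replicates 2 and 3, WT IAA replicate 2 and WT DMSO replicate 1 (0.73 to 0.93 on the log2 scale, adjusted p 0.0568 to 0.165), and also without voom weights or with only the POP2 and WT libraries in the fit (adjusted p 0.0568 to 0.0622).

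The structural genes of respiration had more calls lower than higher in POP2, but this balance did not hold in every fit. Of 36 genes of the respiratory chain and ATP synthase tested, 8 were called lower and 1 higher in POP2. The share lower was near the 19.5% of all genes called lower in POP2. In WT 11 were called lower, where 3.41% of all genes were called in either direction. The median change was -0.24 in POP2, -0.50 in WT and 0.38 beyond WT, where 30 of 36 were positive. Without POP2 IAA replicate 1 the calls in POP2 were 3 higher and 2 lower, and with only the POP2 libraries in the fit 2 higher and 1 lower. The single gene called beyond WT, QCR8, was not called in POP2 itself (log2 change 0.22, adjusted p 0.336), and its call beyond WT (0.72, adjusted p 0.0408) was lost without any 1 of the 12 POP2 and WT libraries other than POP2 IAA replicate 1 and POP2 DMSO replicate 3 (0.59 to 0.77 on the log2 scale, adjusted p 0.0523 to 0.148). Of 17 mitochondrial carriers, none was called higher in both comparisons (5.89% of all genes were) and 2 were called lower (3.31%). CRC1, the carnitine carrier, stood at 1548, 1436 and 1746 CPM with DMSO and 1169, 610.0 and 863 CPM with IAA. All IAA libraries were below the DMSO libraries, and the change beyond WT was -1.14 (SE 0.33, adjusted p 0.0188), and this call was lost without any 1 of the libraries POP2 IAA replicate 2, POP2 DMSO replicate 3 and WT IAA replicate 3 (-0.89 to -1.06 on the log2 scale, adjusted p 0.0531 to 0.103). AAC1, a minor ADP/ATP carrier, fell in WT too (-1.69) and fell further in POP2, with a change beyond WT of -1.10 (SE 0.28, adjusted p 0.00785).

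The TCA cycle split, with 3 of 16 genes called higher and 11 lower in POP2, where 16.7% and 19.5% of all genes were. The number lower was 7 without POP2 IAA replicate 1 or 3 and 6 without POP2 DMSO replicate 3, and it was 7 with median-of-ratios scaling, 7 with the filter on mean counts and 6 with only the POP2 libraries in the fit. Both subunits of isocitrate dehydrogenase were among the higher: IDH1 stood at 945, 835 and 1075 CPM with DMSO and 1437, 2842 and 2122 CPM with IAA, and IDH2 at 589, 633 and 754 and 1049.6, 2694 and 1869.9 CPM. The IAA libraries lay above the DMSO libraries in both. IDH1 exceeded WT by 1.09 (adjusted p 0.0172), and this call was lost without any 1 of the libraries POP2 IAA replicate 2, POP2 DMSO replicate 2 and WT IAA replicate 2 (0.87 to 0.99 on the log2 scale, adjusted p 0.0514 to 0.0899). IDH2 exceeded WT by 1.06 (adjusted p 0.0470), and this call was lost without any 1 of the 12 POP2 and WT libraries other than POP2 IAA replicate 1, POP2 DMSO replicate 3, WT IAA replicate 3 and WT DMSO replicate 1 (0.77 to 1.08 on the log2 scale, adjusted p 0.0640 to 0.227), and also with scaling by total counts, without voom weights or with only the POP2 and WT libraries in the fit (adjusted p 0.0504 to 0.0682). LAT1, a subunit of pyruvate dehydrogenase, had a change beyond WT of -0.56 (SE 0.14, adjusted p 0.00724). LSC2, of succinyl-CoA ligase, had a change beyond WT of -0.61, and this call was lost without any 1 of the 12 POP2 and WT libraries other than POP2 IAA replicate 1 and POP2 DMSO replicate 2 (-0.54 to -0.64 on the log2 scale, adjusted p 0.0521 to 0.120), and also with median-of-ratios scaling (adjusted p 0.0571).

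**Figure D3:**
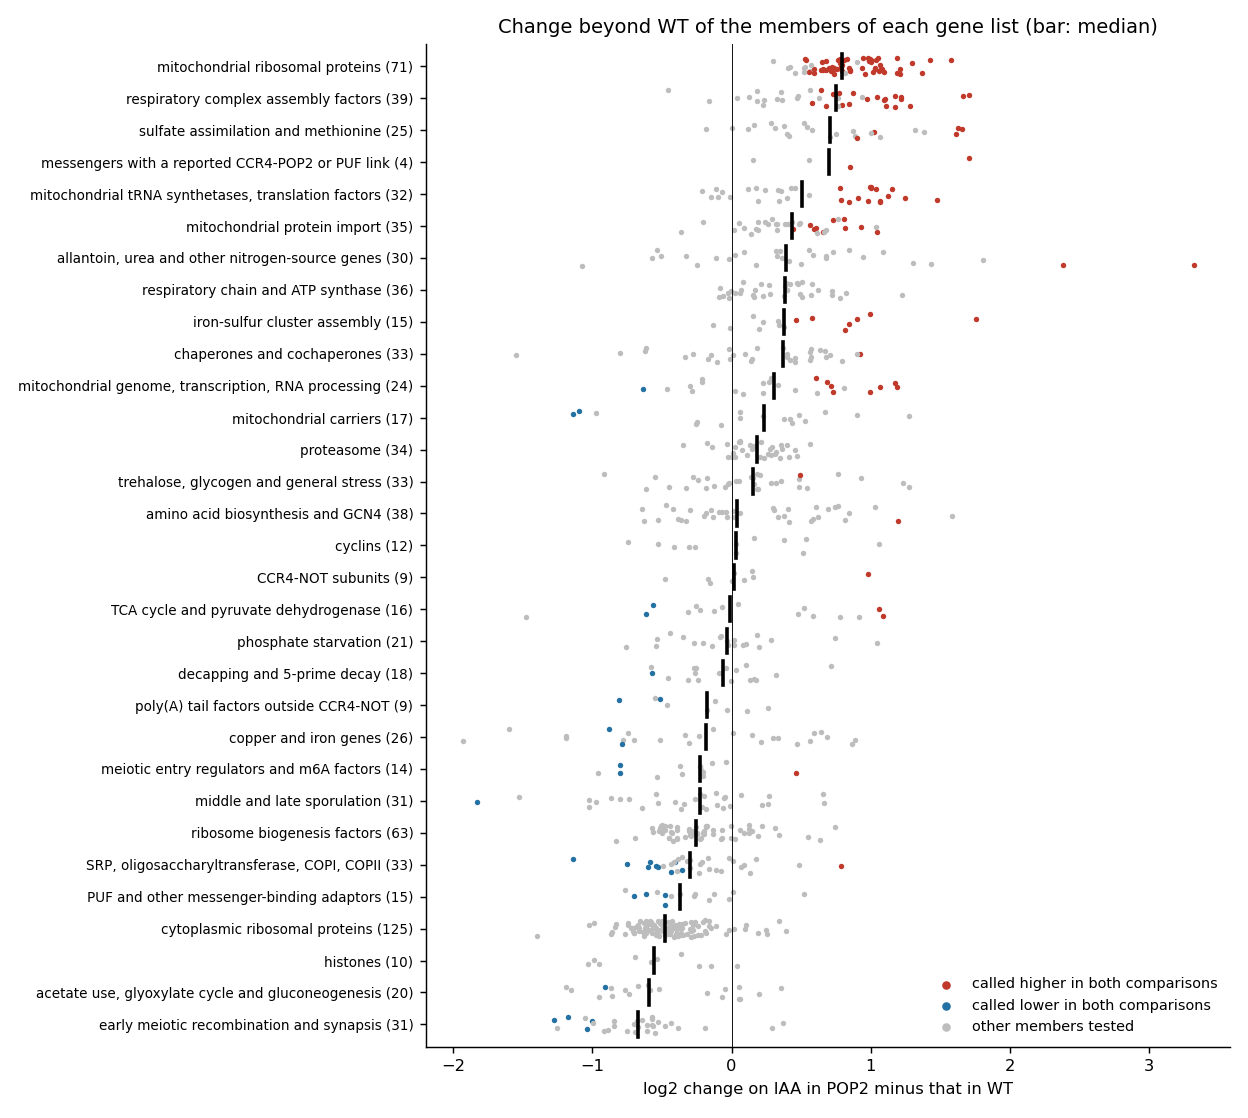
Each row is a gene list with the number of members tested, each point a member, and the horizontal axis the log2 change on IAA in POP2 minus that in WT; the black bar is the median. Red and blue points were called higher and lower in both comparisons: red points fill the rows of the mitochondrial ribosomal proteins (60 of 71) and assembly factors (20 of 39), while cytoplasmic ribosomal proteins have no coloured point.

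Among single genes, the 12 with the largest rise beyond WT include several of the same kind. They were picked among genes whose IAA and DMSO libraries in POP2 were separate, as were the 10 largest falls. That separation is therefore no result about them. UPS2, a mitochondrial phospholipid regulator, stood at 44.0, 49.2 and 46.9 CPM with DMSO and 153, 413 and 249.9 CPM with IAA in POP2, and in WT at 27.6, 41.7 and 40.5 CPM with DMSO and 38.5, 40.2 and 30.0 CPM with IAA. The POP2 IAA libraries were above all the others, and the change was 2.43 (SE 0.28, adjusted p 5.17e-09) in POP2 and 2.44 (SE 0.42, adjusted p 9.85e-05) beyond WT. ECM13 stood at 138, 157 and 178 CPM with DMSO and 488, 1063 and 922 CPM with IAA. Replicate 1 was the lowest of the IAA libraries. The change beyond WT was 2.57 (SE 0.44, adjusted p 1.07e-04). YRO2, a membrane protein gene, rose in WT too (1.55, adjusted p 0.0158), and by 3.07 (SE 0.61, adjusted p 7.22e-04) more in POP2, where it went from 25.5, 80.9 and 59.5 to 710.1, 1589.5 and 1575 CPM.

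AIM33 went from 24.6, 41.8 and 32.4 to 52.3, 134 and 79.6 CPM, with a change beyond WT of 2.14 (SE 0.50, adjusted p 0.00343). That value is the POP2 change less the WT change, and it exceeds the mean rise in POP2 that these CPM show. THP2, a subunit of the THO complex that couples transcription to messenger export, went from 8.83, 10.4 and 8.00 to 20.2, 21.2 and 23.4 CPM. COM2, a zinc-finger protein gene, went from 19.6, 26.6 and 21.8 to 46.5, 73.3 and 53.8 CPM. THP2 and COM2 exceeded WT by 1.74 (SE 0.43, adjusted p 0.00529) and 1.71 (SE 0.38, adjusted p 0.00223), again by more than these CPM rose in POP2. These 6 genes, with ISA1 and PET117, kept their call beyond WT under all 20 alternatives. The oxidoreductase genes OYE3 and FRM2 rested on fewer libraries. OYE3 stood at 10.6, 9.35 and 10.4 CPM with DMSO and 19.2, 119 and 75.1 CPM with IAA, and its call beyond WT (2.10, adjusted p 0.0172) was lost without POP2 IAA replicate 2 (1.52 on the log2 scale, adjusted p 0.0881), and also with only the POP2 and WT libraries in the fit (adjusted p 0.152). FRM2 stood at 6.21, 5.06 and 5.28 and 17.8, 79.4 and 90.9 CPM, and its call (2.33, adjusted p 0.0158) was lost without any 1 of the libraries POP2 IAA replicate 2 and WT DMSO replicate 2 (1.98 to 2.21 on the log2 scale, adjusted p 0.0520 to 0.0526), and also with only the POP2 and WT libraries in the fit (adjusted p 0.149). Both were lowest in IAA replicate 1.

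Genes of sulfate assimilation and methionine metabolism, a list drawn up after values had been seen, rose together in POP2. Of 25, 19 were called higher (16.7% of all genes were), none was called lower, and all 25 had a positive change, with a median of 1.04 on the log2 scale. Beyond WT 5 were called higher (6.19% of all genes were), all of them also called in POP2. Without POP2 IAA replicate 2 these counts were 12 in POP2 and 2 beyond WT. The count beyond WT was 8 without POP2 IAA replicate 1, 2 without WT DMSO replicate 2 or 3, and 3 without POP2 DMSO replicate 1 or 3 or WT IAA replicate 3. MUP3, a methionine permease, stood at 46.1, 48.8 and 46.7 CPM with DMSO and 113, 267 and 174 CPM with IAA. MET3, which encodes ATP sulfurylase, stood at 58.8, 49.7 and 54.8 and 170.2, 538 and 267 CPM. IAA replicate 2 was the highest and replicate 1 the lowest in both, and neither group overlapped its DMSO libraries. The changes beyond WT were 1.62 (SE 0.30, adjusted p 2.33e-04) for MUP3 and 1.62 (SE 0.39, adjusted p 0.00495) for MET3. MET16, which encodes PAPS reductase, exceeded WT by 1.65 (adjusted p 0.0306), and this call was lost without any 1 of the libraries POP2 IAA replicate 2, POP2 DMSO replicates 1 and 3, WT IAA replicate 3 and WT DMSO replicates 2 and 3 (1.29 to 1.66 on the log2 scale, adjusted p 0.0514 to 0.118), and also with only the POP2 and WT libraries in the fit (adjusted p 0.0843). MET8, of siroheme synthesis, exceeded WT by 1.02 (adjusted p 0.0318), and this call was lost without any 1 of the 12 POP2 and WT libraries other than POP2 IAA replicates 1 and 3, POP2 DMSO replicate 2, WT IAA replicate 2 and WT DMSO replicate 1 (0.77 to 1.05 on the log2 scale, adjusted p 0.0544 to 0.146), and also with only the POP2 and WT libraries in the fit (adjusted p 0.104). In POP2 DMSO, 10 of the 25 were already called higher than in WT DMSO, where 692 of all 5828 genes tested were.

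Genes for poor nitrogen sources showed the same order of libraries. Of 30, 14 were called higher and 3 lower in POP2 (16.7% and 19.5% of all genes were), with a median of 0.73. But 15 were already called higher in POP2 DMSO than in WT DMSO, where 24.8% of all genes were called in either direction. Beyond WT 2, DCG1 and DAL1, were called higher, near the 6.19% of all genes. The 14 became 9 without POP2 DMSO replicate 2. DAL1, which encodes allantoinase, stood at 11.5, 3.51 and 11.9 CPM with DMSO and 50.3, 137 and 60.0 CPM with IAA. Of the IAA libraries, replicate 2 was the highest and replicate 1 the lowest. The change beyond WT was 2.38 (SE 0.70, adjusted p 0.0204), and this call was lost without any 1 of the libraries POP2 IAA replicate 2, POP2 DMSO replicate 2, WT IAA replicate 3 and WT DMSO replicates 2 and 3 (1.81 to 2.37 on the log2 scale, adjusted p 0.0554 to 0.0891), and also with only the POP2 and WT libraries in the fit (adjusted p 0.107). DCG1, a neighbour of the allantoin genes, stood at 4.44, 0.821 and 2.31 CPM with DMSO and 37.3, 89.1 and 57.9 CPM with IAA. Its change beyond WT was 3.32 (SE 1.03, adjusted p 0.0307), and this call was lost without any 1 of the libraries POP2 IAA replicate 2, POP2 DMSO replicate 2, WT IAA replicates 2 and 3 and WT DMSO replicates 1 and 2 (2.70 to 3.31 on the log2 scale, adjusted p 0.0527 to 0.0921), and also with only the POP2 and WT libraries in the fit (adjusted p 0.0848). Of 38 amino acid biosynthesis genes, 8 were called higher and 2 lower in POP2 (16.7% and 19.5% of all genes were). The number higher was 5 without POP2 IAA replicate 2 or 3 or POP2 DMSO replicate 1 or 3. It was 15 with only the POP2 libraries in the fit. In this list 1 gene, TRP4 of tryptophan synthesis, was called beyond WT (1.19, adjusted p 0.0407), and this call was lost without any 1 of the 12 POP2 and WT libraries other than POP2 IAA replicate 1, POP2 DMSO replicate 3, WT IAA replicates 1 and 2 and WT DMSO replicate 1 (0.97 to 1.24 on the log2 scale, adjusted p 0.0504 to 0.154), and also with only the POP2 and WT libraries in the fit (adjusted p 0.0504).

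The proteins that work beside Pop2 in messenger decay were examined next. Of 15 genes for PUF and other RNA-binding adaptors, 6 were called lower and 2 higher in POP2 (19.5% and 16.7% of all genes were). In both comparisons 4 were called lower (3.31% of all genes were): PUF4, NAB6, MRN1 and WHI4. That number was 2 without POP2 IAA replicate 3, POP2 DMSO replicate 2, WT IAA replicate 3 or WT DMSO replicate 2 or 3. PUF4 stood at 180.3, 175 and 162 CPM with DMSO and 126, 141 and 118 CPM with IAA, and in WT at 174, 199 and 186 CPM with DMSO and 214, 257 and 205 CPM with IAA. The POP2 IAA libraries were the lowest of the 12, and the change beyond WT was -0.70 (SE 0.15, adjusted p 0.00197). WHI4 went from 195, 186 and 187 to 147, 136 and 124 CPM, with a change beyond WT of -0.47 (SE 0.10, adjusted p 0.00134). NAB6 had a change beyond WT of -0.62 (adjusted p 0.0227), and this call was lost without any 1 of the libraries POP2 IAA replicate 3, POP2 DMSO replicate 2, WT IAA replicate 3 and WT DMSO replicates 2 and 3 (-0.53 to -0.59 on the log2 scale, adjusted p 0.0514 to 0.0810). MRN1 had a change beyond WT of -0.48 (adjusted p 0.0475), and this call was lost without any 1 of the 12 POP2 and WT libraries other than POP2 DMSO replicate 1 and WT DMSO replicate 1 (-0.39 to -0.52 on the log2 scale, adjusted p 0.0506 to 0.178), and also with median-of-ratios scaling, with no filter on low counts or with the filter on mean counts (adjusted p 0.0637 to 0.0755).

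PAN2, the nuclease of the other deadenylase complex, stood at 140.3, 171 and 149 CPM with DMSO and 85.3, 68.7 and 80.2 CPM with IAA. The groups did not overlap, and the change beyond WT was -0.81 (SE 0.22, adjusted p 0.0137), and this call was lost without POP2 IAA replicate 2 (-0.70 on the log2 scale, adjusted p 0.0622). PBP1, which encodes a partner of the poly(A)-binding protein, had a change of -0.25 (SE 0.08, adjusted p 0.0160) in POP2 and of -0.52 (SE 0.12, adjusted p 0.00274) beyond WT. DCP2, the decapping enzyme, was called higher in WT (0.30, adjusted p 0.0431) and lower in POP2 (-0.27, adjusted p 0.0134), a difference of -0.57 (SE 0.13, adjusted p 0.00188). It stood at 188, 178 and 158 CPM with DMSO and 145, 160.2 and 130.5 CPM with IAA in POP2, where the groups overlapped, and in WT at 184, 178 and 172 CPM with DMSO and 211, 222 and 227 CPM with IAA. Of 18 decapping and 5' decay genes, 7 were called lower and 1 higher in POP2 (19.5% and 16.7% of all genes were), and DCP2 was the single one called beyond WT.

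Messengers with a published link to Ccr4-Pop2 or PUF proteins formed a short list of 6, of which 4 could be tested. COX17, given above, and LRG1 were called higher in both comparisons (5.89% of all genes were). No other tested member of this list was called in POP2 or beyond WT. LRG1, which encodes a GTPase-activating protein of cell wall signalling, stood at 31.4, 31.6 and 26.1 CPM with DMSO and 47.0, 50.1 and 44.3 CPM with IAA. Its change beyond WT was 0.85 (SE 0.26, adjusted p 0.0283), and this call was lost without any 1 of the libraries POP2 IAA replicate 2, POP2 DMSO replicate 3, WT IAA replicate 3 and WT DMSO replicate 2 (0.76 to 0.83 on the log2 scale, adjusted p 0.0641 to 0.0875).

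Meiotic genes were lower, and here the tagged strain differed from WT before IAA. Of 31 genes of early meiotic recombination and synapsis, 29 were called lower in POP2 on IAA (19.5% of all genes were), all but ZIP1 and CST9, with a median of -1.20 on the log2 scale. In WT 1 was called lower, with a median of -0.48. Beyond WT 4 were called lower (3.5% of all genes), with a median of -0.67. In POP2 DMSO libraries 28 of the 31 were already called lower than in WT DMSO libraries, in a comparison where 24.8% of all genes were called. Relative to the WT DMSO mean, the median of the 31 was -0.72, -1.51 and -1.10 in the POP2 DMSO libraries and -1.59, -2.77 and -2.55 in the POP2 IAA libraries. Replicate 1 was the least lowered in both groups. In a bulk sample, fewer cells in early meiosis and less of these messengers per cell cannot be told apart.

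Of the marker sums, those for meiotic entry were lower in each POP2 IAA library than in any POP2 DMSO library. The 7 meiotic entry markers summed to 14067 to 15874 CPM in WT DMSO, 11285 to 14429 in WT IAA, 8106 to 11372 in POP2 DMSO and 4649.9 to 7506 in POP2 IAA libraries. The 7 middle and late markers, at 157 to 299.9 CPM in WT DMSO, summed to 36.2 to 99.3 in POP2 DMSO and 32.8 to 57.2 in POP2 IAA, which overlap. The 12 haploid markers with a line summed to 120.4 to 132 CPM in POP2 DMSO and 79.5 to 92.9 in POP2 IAA. In WT they summed to 113 to 115 CPM with DMSO and 103 to 110 with IAA. The higher sum in POP2 DMSO came from GPA1, at 58.8 to 80.8 CPM against 25.6 to 32.1 in WT DMSO and 32.8 to 38.8 in POP2 IAA. By contrast, STE2, STE3, STE5, STE18, FAR1, MFA1 and MF(ALPHA)1 were lower in every POP2 DMSO library than in any WT DMSO library. MFA1 lay near the floor, at 0.0456 to 0.335 CPM in POP2 DMSO and 0.361 to 0.748 in WT DMSO, so that its separation carries little weight. STE18 was also low, at 0.251 to 0.77 CPM in POP2 DMSO and 2.32 to 3.11 in WT DMSO. The remaining haploid markers overlapped between these groups. The 3 vegetative G1 markers (CLN1, CLN2, PCL1) summed to 24.1 to 32.0 CPM in POP2 DMSO and 18.2 to 26.9 in POP2 IAA, with overlap. No marker with a line was at 0 in all libraries of a group. The part of cell composition or meiotic progress in the POP2 changes was not tested.

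The 4 early genes called beyond WT were MEK1, SPO16, MSH5 and HOP2. SPO16, which acts in synapsis, stood at 149, 97.5 and 119.7 CPM with DMSO and 65.5, 28.9 and 40.1 CPM with IAA in POP2, and in WT at 273, 249 and 257 CPM with DMSO and 200.3, 182 and 246 CPM with IAA. IAA replicate 1 was the highest of its group. The change beyond WT was -1.17 (SE 0.32, adjusted p 0.0137), and this call was lost without any 1 of the libraries POP2 IAA replicate 2, POP2 DMSO replicate 1 and WT IAA replicate 3 (-0.87 to -1.03 on the log2 scale, adjusted p 0.0526 to 0.101), and also with only the POP2 and WT libraries in the fit (adjusted p 0.0519). MEK1, a meiotic checkpoint kinase gene, had a change beyond WT of -1.28 (adjusted p 0.0461), and this call was lost without any 1 of the 12 POP2 and WT libraries other than POP2 IAA replicate 1 (-1.02 to -1.37 on the log2 scale, adjusted p 0.0517 to 0.167), and also with median-of-ratios scaling, with no filter on low counts, with the filter on mean counts or with only the POP2 and WT libraries in the fit (adjusted p 0.0538 to 0.0775). MSH5, a crossover factor, had a change beyond WT of -1.03 (adjusted p 0.0364), and this call was lost without any 1 of the 12 POP2 and WT libraries other than POP2 IAA replicate 1, POP2 DMSO replicate 2 and WT IAA replicates 1 and 2 (-0.82 to -1.05 on the log2 scale, adjusted p 0.0589 to 0.147), and also with only the POP2 and WT libraries in the fit (adjusted p 0.103). HOP2, a strand-exchange factor, had a change beyond WT of -1.001 (adjusted p 0.0436), and this call was lost without any 1 of the 12 POP2 and WT libraries other than POP2 IAA replicate 1 and POP2 DMSO replicate 2 (-0.78 to -1.06 on the log2 scale, adjusted p 0.0521 to 0.172), and also with median-of-ratios scaling, with no filter on low counts or with only the POP2 and WT libraries in the fit (adjusted p 0.0505 to 0.120). The number of the 31 called beyond WT was 0 without POP2 IAA replicate 2, POP2 DMSO replicate 1 or WT IAA replicate 3, 1 without POP2 IAA replicate 3, POP2 DMSO replicate 3 or any WT DMSO library, 2 without WT IAA replicate 1 or 2, and 12 without POP2 IAA replicate 1. The number called lower in POP2 itself was 21 to 29 in the same fits, and 19 with only the POP2 libraries in the fit.

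Regulators of meiotic entry were less uniform. IME1, the master regulator of entry, stood at 3408, 2617 and 3180.3 CPM with DMSO and 2676, 1984 and 1986 CPM with IAA in POP2, and in WT at 3922, 3358 and 3020.0 CPM with DMSO and 4429, 3826 and 4607 CPM with IAA. IAA replicate 1 of POP2 lay within the range of its DMSO libraries. The change was -0.48 (SE 0.15, adjusted p 0.00984) in POP2 and -0.80 (SE 0.22, adjusted p 0.0114) beyond WT. SUM1, the repressor of middle meiotic genes, stood at 146, 149 and 133 and 85.0, 78.4 and 67.7 CPM, with separate groups and a change beyond WT of -0.80 (SE 0.15, adjusted p 3.89e-04). RIM101, a transcription factor of the pH response that also acts on IME1, had a change beyond WT of 0.46 (adjusted p 0.0361), and this call was lost without any 1 of the 12 POP2 and WT libraries other than POP2 IAA replicate 1, POP2 DMSO replicate 1 and WT DMSO replicate 1 (0.42 to 0.48 on the log2 scale, adjusted p 0.0558 to 0.0893), and also with scaling by total counts (adjusted p 0.0830). Of 31 middle and late genes, 3 were called lower in POP2 (19.5% of all genes were) and 1, MPC54, in both comparisons (3.31%).

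MPC54, a component of the meiotic outer plaque of the spindle pole body, was one of 3 among the 10 largest falls beyond WT that kept this call under all alternatives. It stood at 186, 128 and 161 CPM with DMSO and 74.9, 37.0 and 40.7 CPM with IAA in POP2, and in WT at 257, 247 and 233 CPM with DMSO and 244, 282 and 292 CPM with IAA. All POP2 libraries lay below all WT libraries. The change beyond WT was -1.83 (SE 0.33, adjusted p 2.03e-04). PIG1, a targeting subunit of the phosphatase that acts on glycogen synthase, stood at 318, 307 and 335 and 137, 109.9 and 118 CPM, and CSA1 at 41.1, 61.4 and 48.2 and 17.7, 15.6 and 16.7 CPM. Their changes beyond WT were -1.17 (SE 0.23, adjusted p 6.56e-04) and -1.47 (SE 0.34, adjusted p 0.00374).

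The other 7 large falls lost their call in some fits. Of these MEK1 and SPO16 are given above. Unit6437, a feature named only in the table, had a change beyond WT of -1.38, and this call was lost without POP2 IAA replicate 2 (-1.11 on the log2 scale, adjusted p 0.0695). YBR184W had a change beyond WT of -1.22, and this call was lost without any 1 of the libraries POP2 IAA replicates 2 and 3, POP2 DMSO replicate 1 and WT IAA replicate 3 (-0.90 to -1.13 on the log2 scale, adjusted p 0.0632 to 0.147). PLB2, a phospholipase B gene, had a change beyond WT of -1.27, and this call was lost without any 1 of the libraries POP2 IAA replicates 2 and 3, POP2 DMSO replicate 2, WT IAA replicate 2 and WT DMSO replicates 1 and 3 (-1.01 to -1.25 on the log2 scale, adjusted p 0.0503 to 0.122). HXT2, a hexose transporter gene, had a change beyond WT of -1.86, and this call was lost without any 1 of the 12 POP2 and WT libraries other than POP2 DMSO replicate 3 and WT IAA replicate 1 (-1.50 to -2.05 on the log2 scale, adjusted p 0.0515 to 0.139). CMR1 had a change beyond WT of -1.22, and this call was lost without any 1 of the 12 POP2 and WT libraries other than POP2 DMSO replicates 1 and 3 (-0.96 to -1.29 on the log2 scale, adjusted p 0.0503 to 0.156), and also with median-of-ratios scaling, with no filter on low counts, with the filter on mean counts or without voom weights (adjusted p 0.0504 to 0.0549).

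Genes of the early secretory pathway, another list drawn up after values had been seen, were more often lower. Of 33 genes of the signal recognition particle, the oligosaccharyltransferase and the COPI and COPII coats, 15 were called lower and 2 higher in POP2, and 9 were called lower and 1 higher in both comparisons. Over all genes the shares were 19.5% lower and 16.7% higher in POP2, and 3.31% lower and 5.89% higher in both. Without POP2 IAA replicate 2 the number lower was 8 in POP2 and 5 in both. The number lower in both was 5 without POP2 IAA replicate 3 or POP2 DMSO replicate 2, and 4 without POP2 DMSO replicate 3, WT IAA replicate 3 or WT DMSO replicate 3. OST5, an oligosaccharyltransferase subunit, stood at 13.8, 12.5 and 17.1 CPM with DMSO and 6.26, 4.81 and 5.27 CPM with IAA. Every IAA library was below every DMSO library, and the change beyond WT was -1.14 (SE 0.23, adjusted p 9.50e-04). SEC31 of the COPII coat had a change beyond WT of -0.75, and this call was lost without any 1 of the libraries POP2 IAA replicate 3, POP2 DMSO replicate 2 and WT DMSO replicate 3 (-0.67 to -0.70 on the log2 scale, adjusted p 0.0504 to 0.0602). WBP1, another oligosaccharyltransferase subunit, had a change beyond WT of -0.60, and this call was lost without any 1 of the 12 POP2 and WT libraries other than POP2 IAA replicates 1 and 3, POP2 DMSO replicate 1 and WT DMSO replicates 1 and 2 (-0.51 to -0.62 on the log2 scale, adjusted p 0.0507 to 0.118). The gene called higher encodes a subunit of the receptor of the signal recognition particle, and its call beyond WT was lost without any 1 of the libraries POP2 DMSO replicate 2, WT IAA replicate 3 and WT DMSO replicate 2 (0.61 to 0.68 on the log2 scale, adjusted p 0.0664 to 0.100), and also with only the POP2 and WT libraries in the fit (adjusted p 0.0816).

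Several groups with calls on IAA in POP2 had few or no calls beyond WT. Over all genes, 16.7% were called higher and 19.5% lower in POP2, and 6.19% higher and 3.5% lower beyond WT. Of 33 chaperone genes 26 were called higher in POP2 and 23 in WT, with medians of 1.60 and 1.37, and MDJ1 of the mitochondrial matrix was the single one called beyond WT (0.92, adjusted p 0.0459), and this call was lost without any 1 of the 12 POP2 and WT libraries other than POP2 IAA replicate 1 (0.83 to 0.98 on the log2 scale, adjusted p 0.0519 to 0.140). The metallothionein gene CUP1-1 rose by 8.50 in POP2 and 7.85 in WT, a difference of 0.65 (adjusted p 0.816); its reads can be shared with the identical CUP1-2 and with overlapping features. Of 26 copper and iron genes tested, 8 were called higher and 9 lower in POP2, and 6 higher and 5 lower in WT. The iron-uptake genes ENB1 and FRE2 were called lower in both POP2 comparisons. ENB1 had a change beyond WT of -0.88, and this call was lost without any 1 of the 12 POP2 and WT libraries other than POP2 IAA replicate 1 and POP2 DMSO replicate 1 (-0.65 to -0.95 on the log2 scale, adjusted p 0.0503 to 0.187), and also with median-of-ratios scaling, with scaling by total counts, with no filter on low counts or with the filter on mean counts (adjusted p 0.0550 to 0.0685). FRE2 had a change beyond WT of -0.78, and this call was lost without any 1 of the 12 POP2 and WT libraries other than POP2 IAA replicate 2, POP2 DMSO replicate 2 and WT DMSO replicate 1 (-0.62 to -0.80 on the log2 scale, adjusted p 0.0543 to 0.137). Of 34 proteasome genes 16 were called higher in POP2 (8 without POP2 IAA replicate 3 and 4 without POP2 DMSO replicate 2) and 1 in WT, with medians of 0.47 and 0.25. None was called beyond WT by limma (1 higher at an unadjusted p below 0.05, and 1 called with only the POP2 and WT libraries in the fit), the nearest being RPN7 (0.56, adjusted p 0.203).

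None of 125 cytoplasmic ribosomal protein genes was called in POP2 or beyond WT by limma, and 0 passed an unadjusted p below 0.05 in either comparison. Of all genes, 36.2% were called in POP2 and 9.69% beyond WT. With only the POP2 libraries in the fit, 5 were called higher and 2 lower in POP2. Their median change was -0.01 in POP2, 0.49 in WT and -0.48 beyond WT, where 8 of 125 were positive. Replicates differed widely: relative to the WT DMSO mean, the group median was -0.665, 0.448 and 0.217 in the WT DMSO libraries. In the WT IAA libraries it was 0.277, 1.16 and 0.035. With such spread, the lack of calls does not show that these genes were unchanged. The lowest adjusted p beyond WT was 0.253, for RPL19A (-0.77), by limma. Many of these genes have a near-identical copy, and how the authors' counting split such reads is not known. Of 63 ribosome biogenesis factors, 1 was called lower in POP2 and none beyond WT, where 0 passed an unadjusted p below 0.05. Their replicates were spread as well, with medians of -0.853, 0.42 and 0.468 in the WT DMSO libraries.

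Of the remaining lists, 7 of 10 histone genes were called lower in POP2, where 19.5% of all genes were. Phosphate genes (3 of 21) and cyclins (2 of 12) were called lower at shares below that of all genes. None of these histone, phosphate or cyclin genes was called beyond WT by limma. At an unadjusted p below 0.05, 2 histone genes, 0 phosphate genes and 1 cyclin were lower beyond WT. The histone count was 4 without POP2 IAA replicate 2 or POP2 DMSO replicate 3, and the phosphate count 1 without POP2 IAA replicate 1 or 3 or POP2 DMSO replicate 2 or 3. Beyond WT, 2 histone genes and 1 cyclin were called lower without POP2 IAA replicate 1, and 1 histone gene and 1 phosphate gene were called lower and 1 cyclin higher with only the POP2 and WT libraries in the fit. Their lowest adjusted p beyond WT were 0.0756 for HTB1, 0.220 for PHM8 and 0.0803 for CLB5. Of 20 genes of acetate use and gluconeogenesis, 8 were called lower (19.5% of all genes were) and none higher in POP2. The number lower was 4 without POP2 IAA replicate 2 and 5 without POP2 DMSO replicate 3. SIP4, a transcription factor of gluconeogenesis, was the single one called beyond WT (-0.91, adjusted p 0.0470), and this call was lost without any 1 of the 12 POP2 and WT libraries other than POP2 IAA replicate 1 and POP2 DMSO replicate 2 (-0.70 to -0.97 on the log2 scale, adjusted p 0.0541 to 0.191), and also with median-of-ratios scaling, with no filter on low counts, with the filter on mean counts, without voom weights or with only the POP2 and WT libraries in the fit (adjusted p 0.0503 to 0.0786). Of 33 trehalose, glycogen and stress genes, 6 were called higher and 1 lower in POP2. The share higher was near the 16.7% of all genes called higher. With only the POP2 libraries in the fit, 10 were called higher. TPS3, a trehalose synthase subunit, stood at 79.7, 85.5 and 77.6 CPM with DMSO and 144, 162 and 148 CPM with IAA, with no overlap. It was the single member called beyond WT (0.49, adjusted p 0.0143), and this call was lost without WT DMSO replicate 1 (0.42 on the log2 scale, adjusted p 0.0540).

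**Figure D4:**
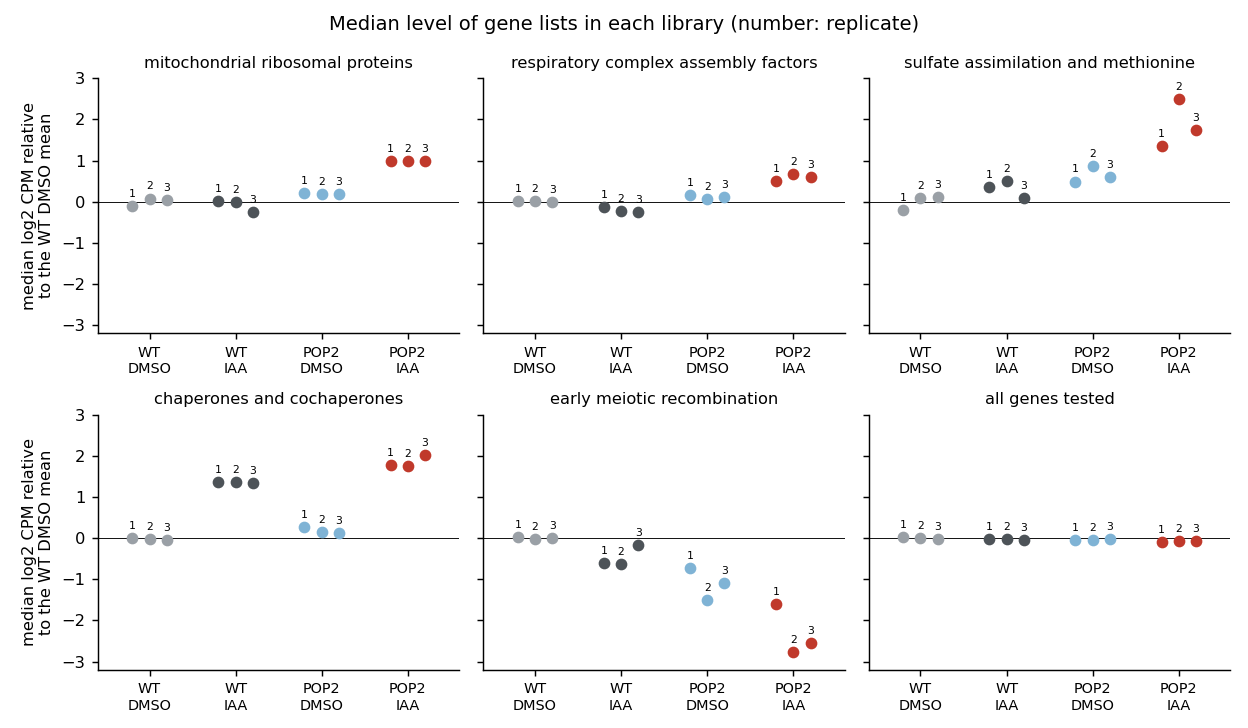
Each panel shows a gene list and each numbered point a library; the vertical axis is the median over the list of log2 CPM relative to the WT DMSO mean. The mitochondrial ribosomal proteins sit at 0.99 to 1.00 in all POP2 IAA libraries, sulfate genes are highest in IAA replicate 2, and the early meiotic genes are below WT in the POP2 DMSO libraries already.

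The change in POP2 was also compared with that in the strains of the other 2 subunits, which share no library with it. The POP2 change differed from the NOT5 change for 548 genes (9.4%), 289 higher and 259 lower, and from the CAF40 change for 410 genes (7.04%), 276 higher and 134 lower. The CAF40 genotype label names no tagged gene, and that group was taken from the title. The change of mitochondrial ribosomal protein genes was higher in POP2 than in NOT5 for 34 of 71, with a median difference of 0.54, and higher than in CAF40 for 60 of 71, with a median difference of 0.85. No member was called with a lower change in POP2 in either comparison, also at an unadjusted p below 0.05 (0 of 71). In their own strains, 13 were called higher on NOT5 depletion, with a median of 0.18, and none on CAF40 depletion, with a median of -0.10. Over all 5828 genes tested, 358 were called higher on NOT5 depletion and 276 on CAF40 depletion. MRPL32 had the largest difference from NOT5 (1.23, adjusted p 7.86e-04), and MRPS16 the smallest (-0.02, adjusted p 0.984). For the early meiotic genes, 11 of 31 changes were lower in POP2 than in NOT5, with a median difference of -1.05, and none was called against CAF40 by limma (5 lower and 0 higher at an unadjusted p below 0.05), with a median of -0.45. The number of genes that differed from NOT5 fell to 287 without POP2 IAA replicate 2, 355 without POP2 DMSO replicate 1, 341 without POP2 DMSO replicate 3 and 341 with only the POP2 and NOT5 libraries in the fit. Against CAF40 the calls were 309 higher and 87 lower with median-of-ratios scaling, and 198 higher and 258 lower with scaling by total counts.

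**Figure D5:**
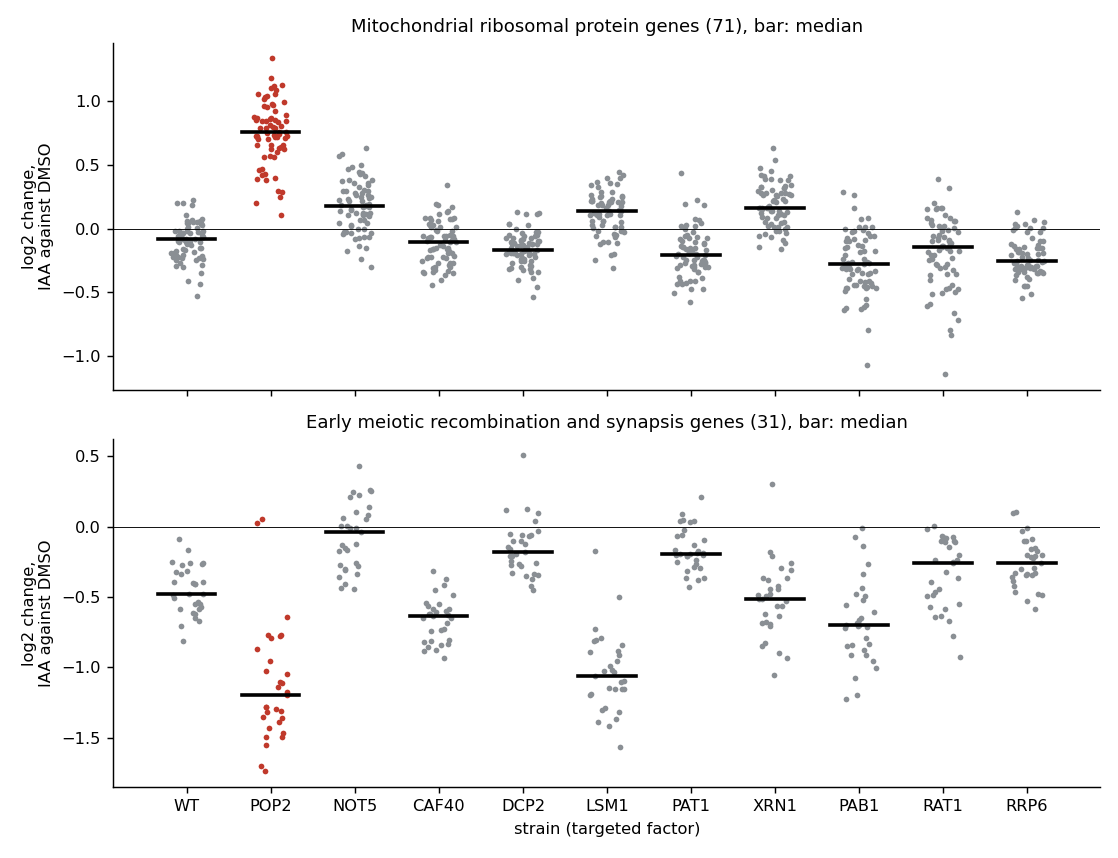
Each point is a gene, placed by strain on the horizontal axis and by its log2 change between IAA and DMSO on the vertical axis; the bar is the median. In the upper panel POP2 (red) has a median of 0.76 and the other strains lie between -0.28 (PAB1) and 0.18 (NOT5); in the lower panel the early meiotic genes have medians of -1.20 in POP2 and -1.06 in LSM1.

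Among the other strains, the median change of the mitochondrial ribosomal protein genes was 0.17 in XRN1, 0.14 in LSM1, -0.14 in RAT1, -0.17 in DCP2, -0.21 in PAT1, -0.25 in RRP6 and -0.28 in PAB1. At most 3 of the 71 were called higher in these strains (XRN1 and LSM1), while 15 were called lower in PAB1 and 13 in RAT1. Over all 5828 genes tested, 312 were called higher in XRN1 and 474 in LSM1. In PAB1 816 of all genes were called lower, and in RAT1 755. The differences between POP2 and these 7 strains were not tested. The early meiotic genes, by contrast, were called lower in LSM1 for 29 of 31, as many as in POP2, with a median of -1.06. Other lists called in POP2 were also called in LSM1. There, 21 of 25 sulfate genes were called higher (median 1.46), and 18 of 30 nitrogen-source genes were called higher and 2 lower. Of the histone genes 9 of 10 were called lower, and of the acetate genes 10 of 20 were called lower and 4 higher. Over all 5828 genes tested, LSM1 had 474 called higher and 605 lower.

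The POP2 strain already differed from WT without IAA. With DMSO alone, 1446 genes (24.8%) differed between POP2 and WT, 692 higher and 754 lower. This comparison shares the POP2 DMSO libraries with the change on IAA. Whether the tag lowered Pop2 function before IAA was added was not measured.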

How the data were processed

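Poly(A)-selected, strand-specific, paired-end libraries were sequenced, per the labels. The submitters' processing notes name STAR 2.7.10a, RSEM 1.3.1 and DESeq2 1.48.1 without a role for each; the genome build and annotation are not given in the sources used here. The authors deposited 1 table whose gene lines are whole-number counts, unscaled. The deposited columns also hold the authors' principal component scores above the genes, so that the unit of a whole column is other than counts; these scores were not used. For this reason the gene lines were tested with limma and not with a count model. A further 6 columns match no sample and were not used. Names and neighbours came from RefSeq R64, in which 5626 of 6171 genes had an entry.

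Genes with at least 0.484 CPM (10 counts at the median library size) in at least 3 libraries and 15 counts in all were kept, which left 5828 and removed 343. Scaling used trimmed means of M values (TMM, trims of 0.3 and 0.05). Log2 CPM (pseudocount 0.5 counts) with voom weights were fitted in R 4.3.3 with limma 3.58.1, with 1 mean for each of 22 groups over 66 libraries. Benjamini-Hochberg adjustment covered the genes tested in each comparison. A log2 fold change is an average over 3 libraries per group, with its standard error (SE). The scripts were tested on simulated data. Python 3.11.15 with matplotlib 3.10.9 drew the figures.

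The members, gene lists and tests were chosen with earlier results of these data known, and 8 lists were added after values had been seen. Named genes were called in both comparisons with the same sign, averaged 10 CPM or more in the POP2 libraries and had separate IAA and DMSO libraries: the 12 largest rises and 10 largest falls beyond WT. Up to 4 genes called in both were also named from each list, or the one with the lowest adjusted p beyond WT where none was, and the CCR4-NOT subunits and CUP1-1 always. PIF1 and further mitochondrial ribosomal protein genes were named after their values were seen. Alternatives were 2 other scalings, 2 other filters, 2 fits without voom weights, a fit of only the groups compared, a replicate block, and each POP2 and WT library left out in turn. The log2 median over all genes moved by less than 0.1 under each scaling. No sequences are shown and no promoter motif was searched.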

Additional observations from a re-analysis of the deposited data

Results flagged for a closer look

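The change on IAA differed between POP2 and another strain, by the interaction term of the limma fit, for many genes. Against WT it differed for 565 genes, against NOT5 for 548 genes and against CAF40 for 410 genes. Of the 71 mitochondrial ribosomal protein genes, the change was higher in POP2 than in NOT5 for 34 and higher than in CAF40 for 60. The POP2 libraries enter all of these comparisons, which are therefore not independent of each other. The groups have 3 libraries each, so no library was tested as standing apart from its group.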

How the results depend on the processing

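Of 20 alternatives, 12 left out 1 library. Of 1880 values of named genes, 1588 kept their direction and side of the threshold, 272 fell short of it, 8 newly passed it and 12 changed sign. These 12 belong to NOT3 and CAF130, which were not called: without 1 library their changes beyond WT ran from -0.10 to 0.15 and from -0.084 to 0.10, and CAF130 stood at -0.013 with scaling by total counts. Of 78 named genes called in both comparisons, 42 kept their call beyond WT under every alternative. With only the libraries of the groups compared, 341 genes differed from NOT5. With a replicate block for strain and replicate number, calls rose to 1368 beyond WT (680 higher, 688 lower), 798 in WT, 1376 beyond NOT5, 1067 beyond CAF40 and 1240 in both comparisons, and all 536 genes called in both were among these. Beyond WT the block called 4 histone genes lower, 2 phosphate genes higher and 2 lower, 2 cyclins higher and 2 lower, 6 respiratory chain genes higher and 1 proteasome gene higher. It also called 12 early meiotic genes and 6 middle and late genes lower, and none of either higher. Of the meiotic entry regulators it called 5 lower and 1 higher. Of the early secretory genes 16 were lower and 2 higher, and of the adaptors 7 were lower and 1 higher. The numbers were not taken as pairs: IAA and DMSO residuals of the same number correlated at 0.39, 0.194 and 0.011 in POP2, 0.311, 0.527 and -0.159 in WT and 0.406, 0.326 and 0.0096 in CAF40, although they were 0.485, 0.59 and 0.525 in NOT5, where every library correlated best with its own number. Leaving out 1 library at a time, calls ran from 1586 to 1965 in POP2, 369 to 595 beyond WT, 355 to 564 in both, 85 to 141 in WT, 985 to 1437 between the DMSO groups, 287 to 625 beyond NOT5 and 304 to 425 beyond CAF40. The POP2 transcript changed by -0.75 to -0.56 in the same fits. In WT the share of calls that were higher was 49.2%, and 59.6% with median-of-ratios scaling. Beyond CAF40 it was 67.3%, 78% with median-of-ratios scaling and 43.4% with scaling by total counts. The causes were not tested. Differences near the floor of 0.126 to 0.177 CPM were not detectable at this depth.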
